A study of Mus musculus with 1392 samples.

Results

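The regions described here are the chromatin around 4 genes used to recognise haematopoietic stem cells: Kit, Cd34, Procr and Ly6a. Members were the peaks of the deposited table that overlapped 1 window per gene, a rule in mm9 coordinates that uses no measured value. The windows were, however, chosen with earlier results of these data known. The Kit window ran from 75800000 to 76080000 on chromosome 5 and was set to include upstream enhancers. The Cd34 window ran from 196740000 to 196820000 on chromosome 1, and the Procr window from 155555000 to 155610000 on chromosome 2. The Ly6a window ran from 74700000 to 74880000 on chromosome 15 and takes in neighbouring genes. Together they held 73 of the 115295 peaks, with 27 in the Kit window, 11 in the Cd34 window, 8 in the Procr window and 27 in the Ly6a window. Open chromatin was profiled cell by cell with a plate-based ATAC-seq protocol, in which a transposase inserts adapters into accessible DNA. The cells came from bone marrow of C57BL/6 mice labelled young or old. Both ages were sorted by the same gate, LSKCD150+CD48-CD34-Vwf+, where LSK stands for cells without lineage markers and with Sca-1 and Kit. Von Willebrand factor, the product of Vwf, serves clotting and is found in platelets and endothelium. The exact ages are not analysed here, since the labels read only young and old. The study asked how the subtypes within this population shift in ageing.

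Kit encodes the receptor for stem cell factor, which stem and progenitor cells need for survival. Ly6a encodes Sca-1, a surface protein anchored in the membrane by a lipid, and lies in a cluster of similar Ly6 genes. Cd34 encodes a sialomucin of progenitors and endothelium that long-term stem cells of adult mice largely lack at the surface, and Procr encodes the endothelial protein C receptor, EPCR, a stem cell marker that was not in this gate. The sort therefore required KIT and SCA-1 protein, excluded CD34 protein and left EPCR free. Open chromatin at a gene and protein at the cell surface are separate measurements, and neither RNA nor protein was measured here.

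The promoters of Kit, Cd34 and Procr are shown because the windows were drawn around these genes and because the sequences differ in base composition. They come from RefSeq on GRCm38.p6, a later build than the mm9 of the peaks, so no peak was placed on them. Of the 4 genes, 3 had an entry, and the entry used for each spans the 250 bases before a listed transcription start on the plus strand, written 5′ to 3′ as chr5:75574737-75574986 for Kit, chr1:194938571-194938820 for Cd34 and chr2:155750967-155751216 for Procr. Capitals mark matches to 5 short motifs searched on both strands: GATAA (GATA factors), AGGAAG (ETS factors), TGTGGT (RUNX factors), CANNTG (E-box) and GGGCGG (GC box).
Kit: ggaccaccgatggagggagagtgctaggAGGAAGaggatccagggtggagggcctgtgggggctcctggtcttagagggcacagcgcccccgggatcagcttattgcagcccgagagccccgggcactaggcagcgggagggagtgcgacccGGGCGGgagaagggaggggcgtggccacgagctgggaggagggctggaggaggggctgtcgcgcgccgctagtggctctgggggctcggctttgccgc
Cd34: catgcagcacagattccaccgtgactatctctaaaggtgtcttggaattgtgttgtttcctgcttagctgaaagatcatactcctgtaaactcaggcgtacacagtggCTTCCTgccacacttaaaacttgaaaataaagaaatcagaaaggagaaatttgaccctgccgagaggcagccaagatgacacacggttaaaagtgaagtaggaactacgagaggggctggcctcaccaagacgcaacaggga
Procr: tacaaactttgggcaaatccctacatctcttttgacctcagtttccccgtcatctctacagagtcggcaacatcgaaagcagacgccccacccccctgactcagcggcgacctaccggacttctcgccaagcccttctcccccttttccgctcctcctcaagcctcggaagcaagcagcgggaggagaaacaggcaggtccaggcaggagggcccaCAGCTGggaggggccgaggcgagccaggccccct
The Kit promoter was the richest in G and C, at 70.8% with 17 CpG dinucleotides, against 61.6% and 13 in Procr and 46.4% and 6 in Cd34. The median promoter of the RefSeq table had 52.4% and 6. Kit held 1 ETS match, 222 bases before the start, and 1 GC box, 98 bases before it. Cd34 held 1 ETS match on the other strand at 142 bases, and Procr held 1 E-box at 34 bases. No GATA or RUNX letters were found in these 3 windows. Over all 32851 promoter entries of that length the ETS letters occurred in 29.5%, the GC box in 32.7%, the E-box in 66.2%, GATAA in 22.6% and TGTGGT in 14.0%, so each match is of a kind that many promoters hold.

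The table covered 1392 cells, 332 young and 1060 old, which the titles number as 2 young and 3 old sets of 151 to 380 cells. The labels do not state what a set is (1 mouse, pooled mice or 1 plate). The p-values therefore measure only the spread between these sets, which may be technical, and age cannot be told apart from the preparation of a set. Total counts per set ran from 1159957 in young 1 to 4181770 in old 1, and median counts per cell from 3604.5 in old 3 to 11807 in young 2. The 73 peaks had 6601 counts in all.

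Each of the 4 windows had counts in every set, and no peak in them differed between old and young cells past the threshold. Of the 73 peaks, 31 had enough counts to be tested: 7 of 27 in the Kit window, 5 of 11 in the Cd34 window, 7 of 8 in the Procr window and 12 of 27 in the Ly6a window. The test called 0 of the 31 (summed counts of each set, edgeR's quasi-likelihood test, Benjamini-Hochberg adjusted p under 0.05), where it called 3.17% of all 58167 tested peaks. Among 31 peaks, 0 calls lies near that share and is not read as a trait of these loci. At an unadjusted p under 0.05 there were 2 of 31, against 15.4% of all tested peaks. DESeq2, fitted to all 73 members, also called 0, where it called 423 of the 115227 peaks fitted. It gave 2 of the 73 at an unadjusted p under 0.05. The fitted log2 fold change of old over young was positive in 19 peaks and negative in 12, with a median of 0.10 beside -0.01 over all tested peaks. For 16 of the 31, the 95% interval lay within 1 log2 unit on either side of no change, and for the rest a change of that size in at least 1 direction was inside the interval. The 42 peaks that were not tested had at most 44 counts each and held 926 of the 6601 counts.

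**Figure D1:**
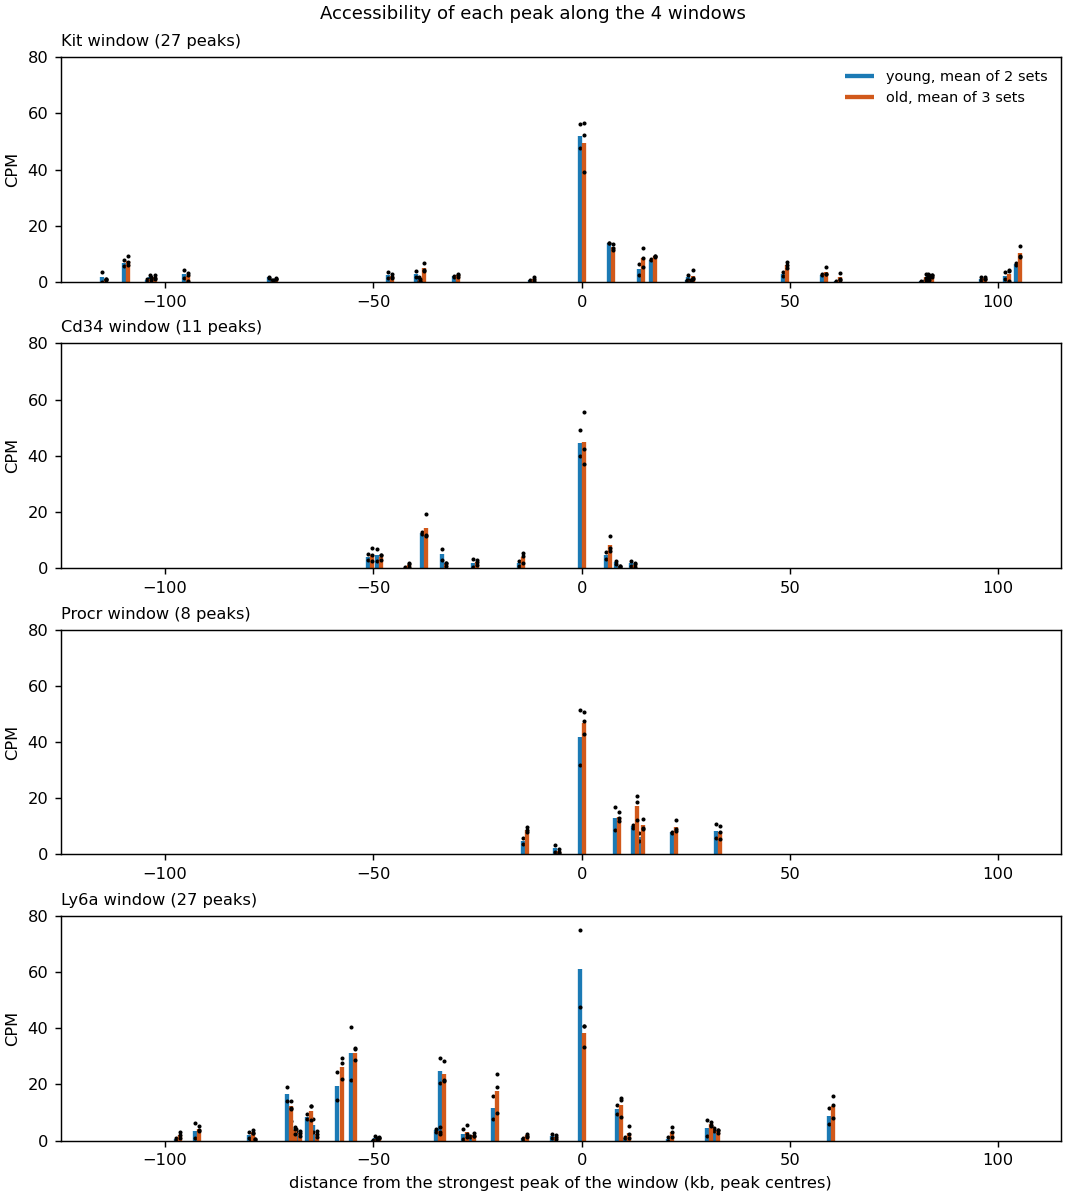
Accessibility of every peak in the 4 windows by distance in kb from the strongest peak of its window, in CPM of all peak counts of a set, that is, counts scaled to 1 common total. Bars give the mean of 2 young (blue) or 3 old (orange) sets and dots the single sets. The strongest peak stands above the rest in the Kit, Cd34 and Procr windows, while the Ly6a window has several further tall peaks, and the taller young bar at its strongest peak is the widest gap in CPM between the ages.

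The Kit window was dominated by 1 broad peak at 75970399 to 75972272, of 1873 bp, whose 582 counts put it at the 98.2nd percentile of all peaks. It held 37.1% of the window's counts. Its level, in CPM of the TMM-adjusted total of tested peaks (the scale of all peak levels given below unless another is named), was 64.8 and 55.2 in young 1 and 2, and 57.2, 43.2 and 61.8 in old 1 to 3. The ages overlapped, with old 2 the lowest set. Old over young was -0.13 on the log2 scale with a standard error of 0.21 and a 95% interval of -0.55 to 0.29.

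Around this peak lay a row of smaller ones. The next by counts, 6.98 kb further along at 75977918 to 75978713 (147 counts), had 15.9 and 16.2 CPM in the young sets and 12.3, 13.5 and 14.6 CPM in the old ones. Young sets were higher without overlap, by a difference of -0.27 (standard error 0.32, edgeR adjusted p = 0.745). Further along, the ages also stood apart at 3 peaks in the other direction, which lay 17.2, 48.8 and 104.8 kb from the strongest peak. In the Kit window the ages were thus apart at 4 of 7 tested peaks, where 33.2% of all tested peaks had them apart. With 7 peaks this is not read as a trend. The tested peak with the smallest p of the window, at 76019630 to 76020554, had only 59 counts. Its level was 3.98 and 2.69 CPM in young sets and 6.82, 7.81 and 5.31 CPM in old sets. All old sets were above both young sets, a log2 fold change of 1.09 (standard error 0.53, edgeR p = 0.0455, adjusted p = 0.311), and its 4 and 6 counts in the young sets limit the precision.

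The outermost named peak of the Kit window, at 76075879 to 76076320 (103 counts), had 7.97 and 7.18 CPM in young and 10.2, 9.90 and 13.9 CPM in old sets. Every old set was above both young sets, by 0.57 on the log2 scale with an interval of -0.20 to 1.34. At 75988227 to 75988825 (102 counts) the 5 sets lay close together, at 8.97 and 9.42 CPM in young and 9.70, 10.4 and 9.96 CPM in old. The ages did not overlap, but the gap was smaller than its standard error, with a log2 fold change of 0.11 and a standard error of 0.37. At 75985361 to 75985993 (90 counts) the sets scattered widely, with 2.99 CPM in young 1 from 3 counts, 7.63 in young 2, and 9.18, 13.5 and 5.98 in old 1 to 3. The ages overlapped there, and the log2 fold change of 0.69 was 0.35 without young 1 and 1.70 without young 2. Before the strongest peak, only the one at -109.4 kb (82 counts, distances before the strongest peak being negative) was deep enough to test, and its log2 fold change was 0.10. The rest of the stretch before the strongest peak held peaks of at most 41 counts that were not tested.

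The Ly6a window had the most open chromatin by sum, with 2762 counts in 27 peaks, and the least concentrated: its strongest peak held 18.8% of the window's counts. This peak, at 74818711 to 74820222 (1511 bp, 519 counts), came closest to a difference between the ages. It had 86.7 CPM in young 1 and 55.2 in young 2, against 44.9, 37.0 and 44.5 in old 1 to 3. Both young sets were above all old sets, and young 1 was well above young 2. The log2 fold change was -0.70 with a standard error of 0.22 and an interval of -1.13 to -0.28 (edgeR p = 0.00207, adjusted p = 0.0590), which missed the threshold. The result leaned on young 1. Without it, the log2 fold change was -0.38 (edgeR adjusted p = 0.582), and with young 1 as the only young set it was -1.01 (edgeR adjusted p = 0.0250). Over cells between the 5th and 95th percentile of counts per cell it was -0.88 and passed (edgeR adjusted p = 0.00493). With DESeq2 the adjusted p was 0.330, and over all alternatives the adjusted p ran from 0.00493 to 0.582.

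The same peak can be read against its own window, a measure that the depth of a set does not scale. It took 32.1% of the window's counts in young 1 and 20.1% in young 2, and 16.2%, 16.9% and 16.5% in the old sets. The old sets agreed closely and the young sets did not. After thinning every cell to 1906 counts, a count in this peak was found in 9.60% and 11.6% of young cells and in 6.76%, 5.99% and 10.0% of old cells by set. On that measure, taken from 1 random draw of the thinning, the ages overlapped, through old 3. The mean over all draws is not given here for single peaks. The edgeR fit to the same thinned cells gave a log2 fold change of -0.69 (edgeR adjusted p = 0.405), beside -0.70 without thinning.

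The other strong peaks of the Ly6a window showed the sets in other orders. At 74764173 to 74765000, at -54.9 kb from the strongest peak, the level was 24.9 CPM in young 1, 47.1 in young 2, and 35.7, 36.5 and 31.2 in old 1 to 3. The old sets lay between the 2 young sets, and the log2 fold change was -0.14 with a standard error of 0.24. Its neighbour at 74760830 to 74761798 (290 counts) had 16.9 and 28.3 CPM in young and 30.2, 24.5 and 31.9 CPM in old sets. Young 1 was lowest there and the ages overlapped, with a log2 fold change of 0.27 and a standard error of 0.27, or 0.04 without young 1 and 0.80 without young 2. So young 1 was the highest set at the strongest peak and the lowest at these 2. Across the 12 tested peaks of the window, 6 were fitted higher in old and 6 in young, with a median of -0.01. Counting the strongest, the ages stood apart at 2 of these 12 peaks, where 33.2% of all tested peaks had them apart. The other one, at -70.3 kb from the strongest, was chosen here after its values were seen. It had 21.9 and 16.6 CPM in young against 15.5, 12.5 and 12.6 in old, a log2 fold change of -0.43 (standard error 0.31). In RefSeq's gene order Ly6a lies among Ly6e, Ly6i, Ly6c1, Ly6c2 and Ly6g, whose sequences resemble each other. How reads that match several copies were handled is not given in the sources used here, so counts in this window may be split or shared between copies.

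The gate excludes CD34 protein, and the Cd34 window had counts in every set. Members are peaks of the table by the rule, so those counts set no contrast between chromatin and protein. Per kb of peak the Cd34 window had 16.1 ± 2.11 CPM of all peak counts (SD, n = 5 sets), near the 15.8 of all peaks. This level was above that of the Kit window (11.2 ± 1.20) and overlapped that of the Ly6a window (17.3 ± 1.60). The strongest peak of the Cd34 window, at 196802269 to 196803749 (1480 bp, 507 counts), stood at the 97.2nd percentile of all peaks. It held 51.1% of the window's counts. The level was 56.8 and 46.2 CPM in young 1 and 2, and 46.4, 41.2 and 60.4 in old 1 to 3. The ages overlapped, and the highest and lowest sets were both old. The log2 fold change was -0.05 with a standard error of 0.22 and an interval of -0.49 to 0.38, and its sign turned to 0.05 with library totals in place of TMM factors.

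The peak at -37.9 kb from it, spanning 196764777 to 196765497 (171 counts), had 14.9 and 14.4 CPM in young and 21.0, 13.0 and 12.6 in old sets. Old 1 was above and the other old sets were below both young sets. Its log2 fold change was 0.16 with a standard error of 0.32. The peak 6.39 kb after the strongest, spanning 196809100 to 196809690 (81 counts), had 3.98 and 6.73 CPM in young and 7.87, 6.77 and 12.6 in old. The ages did not overlap, though young 2 and old 2 were nearly level, and the log2 fold change of 0.60 had an interval of -0.27 to 1.47 (edgeR adjusted p = 0.554). It was 0.38 without young 1 and 1.15 without young 2. In the Cd34 window 1 of 5 tested peaks had the ages apart, where 33.2% of all tested peaks did.

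The Procr window had the largest share of peaks deep enough to test, 7 of 8. Its strongest peak, at 155567941 to 155569464 (1523 bp, 542 counts, the 97.7th percentile), had 36.9 CPM in young 1, 59.7 in young 2, and 51.9, 47.4 and 55.1 in old 1 to 3. The 2 young sets lay on either side of all old sets. The log2 fold change was 0.04 with a standard error of 0.22 and an interval of -0.39 to 0.47. The next by counts, at 155581397 to 155581804 (163 counts), was narrower, at 407 bp. It had 11.0 and 12.1 CPM in young and 13.4, 20.8 and 22.6 in old sets. Every old set was above both young sets, a log2 fold change of 0.63 (standard error 0.33, edgeR p = 0.0627, adjusted p = 0.357).

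A like pattern was seen at the peak at -13.5 kb from the strongest, spanning 155554826 to 155555543 (87 counts), which straddles the edge of the window. It had 6.97 and 4.49 CPM in young and 9.44, 10.9 and 8.63 in old, a log2 fold change of 0.85 (standard error 0.44, edgeR p = 0.0569, adjusted p = 0.343) that was 0.50 without young 2. Old sets were again all above young sets, as they were at the peak at 155582618, chosen here after its values were seen, with 8.97 and 5.38 CPM in young and 10.5, 14.1 and 9.96 in old. By contrast, at 155576735 to 155577484 (158 counts) the young sets were the extremes, with 9.96 and 19.7 CPM, and the old sets lay between, with 14.2, 13.0 and 16.6. The Procr window thus had 3 of 7 tested peaks higher in all old sets and 0 higher in all young sets. Over the 4 windows the ages stood apart at 10 of 31 tested peaks, with old above young at 7 and below at 3, where 33.2% of all tested peaks had the ages apart. The members' share was therefore near that of peaks at large. The share of all tested peaks apart in each direction is not given here, so the directions are not read as a trend.

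**Figure D2:**
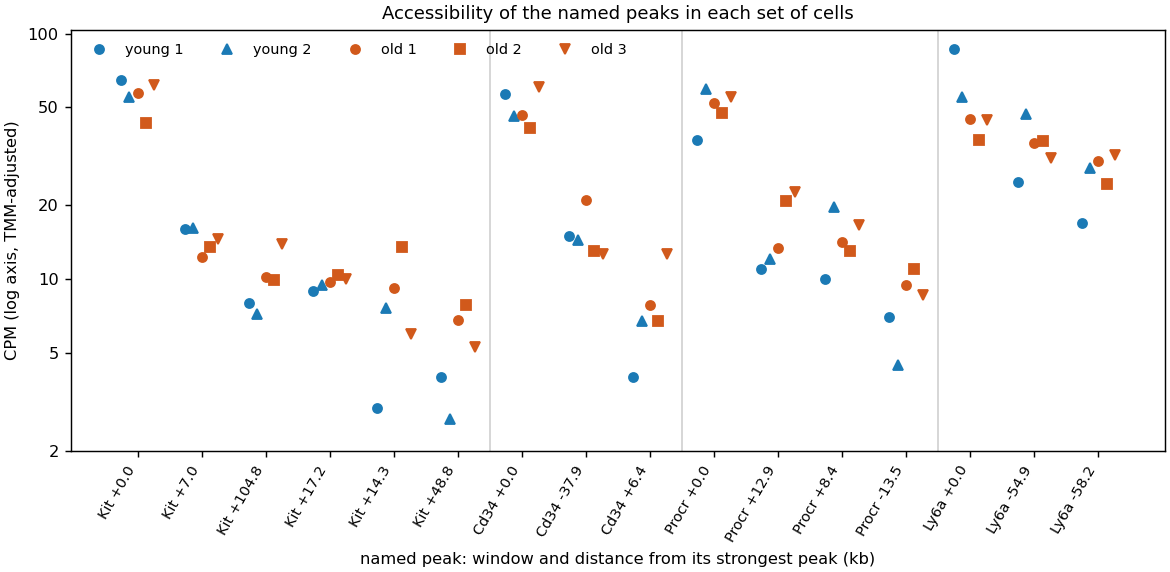
Level of the 16 named peaks in each set, in CPM of the TMM-adjusted total on a log axis. Blue marks the 2 young sets and orange the 3 old sets. Labels give the window and the distance in kb from its strongest peak. At the strongest Ly6a peak both young sets lie above all old sets, with young 1 at 86.7, while at the strongest Kit, Cd34 and Procr peaks the colours mix.

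**Figure D3:**
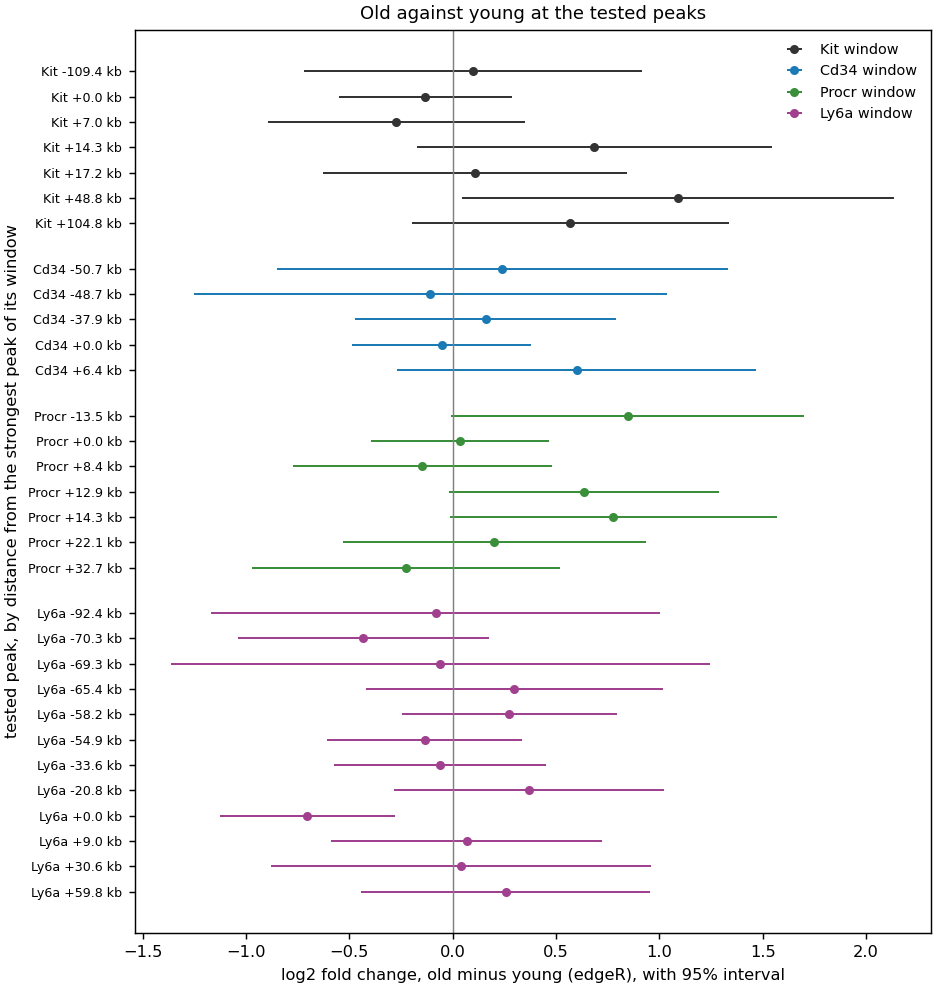
Log2 fold change of old over young at the 31 tested peaks, from edgeR, with bars for the 95% interval. Peaks are ordered by window and by distance in kb from the strongest peak. The bars exclude 0 at 2 peaks, the strongest of the Ly6a window and the Kit peak 48.8 kb from the strongest, and neither passed adjustment over all tested peaks.

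Summed over its peaks, each window was compared in CPM of all peak counts of a set. The Procr window had 78.5 in young 1 and 109.7 in young 2, against 110.7, 112.0 and 124.3 in old 1 to 3. All old sets were above the young ones, young 2 and old 1 only just, and the difference was 0.32 on the log2 scale (exact two-sided permutation p = 0.1, the smallest that 2 sets against 3 allow, and 0.4 adjusted over the 4 windows). Most of it came from young 1: without that set it was 0.08. With TMM-scaled totals it was 0.24 and the permutation p was 0.4.

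The Kit window had 134 and 114 CPM in young and 145, 126 and 149 in old. The ages overlapped through young 1, with a log2 difference of 0.17 (exact permutation p = 0.3, adjusted 0.6) that was 0.30 without young 1 and 0.05 without young 2. Without its strongest peak the sum of the remaining peaks stood apart in the 2 ages, old higher by 0.33, also at the smallest p that the exact test allows (0.1). The Cd34 window had 92.2 and 74.5 CPM in young and 89.4, 73.4 and 98.7 in old, an overlap with a difference of 0.06 (exact permutation p = 0.8, adjusted 1) that was -0.02 with TMM-scaled totals. The Ly6a window had 234 and 236 CPM in young and 252, 197 and 247 in old. Its difference was -0.03 (exact permutation p = 1), and it was 0.15 without the strongest peak.

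Levels of different windows were compared per kb of peak. Kit had the lowest level in every set. The Kit window was also the longest, at 280 kb, and its median peak had 26 counts against 104.5 in the Procr window. How far the extent of a window moves this order was not tested. Beside the values of Kit, Cd34 and Ly6a given above, Procr had 18.3 ± 2.92 CPM per kb (SD, n = 5 sets), while all peaks of the table had 15.8. The order of the last 3 was not fixed: Procr was first in 4 sets, Ly6a was first in young 1, and their spreads over sets overlapped. The strongest peaks alone had 26.8 ± 3.88 CPM per kb in Kit, 30.3 ± 5.04 in Cd34, 29.4 ± 5.23 in Procr and 31.5 ± 10.7 in Ly6a (SD, n = 5 sets). Kit again had the lowest mean, and Cd34 was above Kit in all 5 sets, while Procr was below Kit in young 1 and Ly6a was below Kit in old 1 and old 3. These orders over shared sets were not tested.

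Single cells were sparse in these windows. Without thinning, a count anywhere in the window was found in 49.4% of all cells for Kit, 39.0% for Cd34, 42.8% for Procr and 62.0% for Ly6a. These shares moved with depth: young 2, the set with the most counts per cell, had the highest share in each window, up to 82.1% for Ly6a. After thinning to 1906 counts, which left 1252 cells, the shares were 20.2%, 13.6%, 16.9% and 34.1%. At this depth a cell without a count cannot be called closed.

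Detection at equal depth was compared in the 1 random draw of the thinning and as the mean over all possible draws, an alternative added after the data were seen that takes the chance of the draw away. For Cd34 the draw gave 10.2% and 10.3% of cells in young and 14.9%, 13.4% and 16.2% in old sets. The ages were apart there, with a difference in means of 4.58 points (exact permutation p = 0.1, adjusted 0.4). The mean over all draws gave 16.6% and 12.4% in young and 15.3%, 13.8% and 16.0% in old, an overlap with a difference of 0.55 points (exact permutation p = 0.8). The gap in Cd34 was thus not seen over all draws. For Procr the mean over all draws was 12.8% and 17.1% in young and 19.6%, 17.9% and 18.7% in old. The ages stood apart, with a difference in means of 3.75 points (exact permutation p = 0.1, the smallest possible). In the single draw they overlapped, with a difference in means of 4.10 points (exact permutation p = 0.3, adjusted 0.6). The single-draw difference rested on young 1: it was 1.18 points without that set and 7.01 without young 2.

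For Kit the mean over all draws was 23.0% and 18.9% in young and 23.1%, 20.1% and 23.5% in old, which overlapped. Its difference was 1.23 points, and -0.28 points in the single draw (exact permutation p = 1). For Ly6a it was 33.7% and 36.9% in young and 37.3%, 30.4% and 35.4% in old, and the difference was -0.93 points, or 2.09 in the single draw (exact permutation p = 0.7, adjusted 0.933). Neither window had a count in more cells of 1 age beyond the spread between sets.

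**Figure D4:**
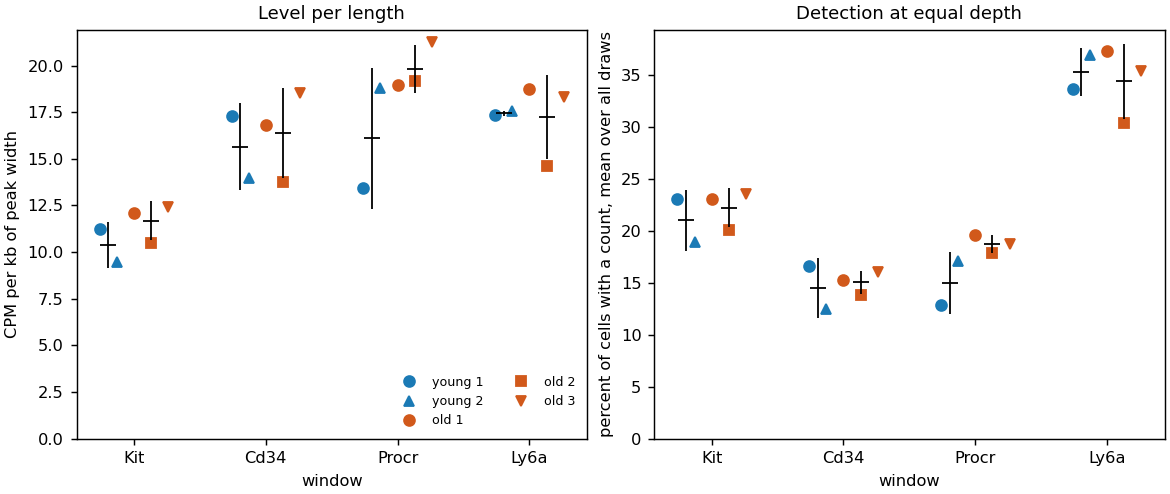
The 4 windows by set. The left panel gives the summed level in CPM of all peak counts per kb of peak width, and the right panel the percent of cells with a count when every cell is thinned to 1906 counts, as the mean over all possible draws. Blue marks young and orange old sets, and black bars the mean ± SD of each age. Kit is lowest per length in every set, and only in the Procr window do all old sets lie above both young sets in each panel, with young 1 the lowest.

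At equal depth, single cells with a count in all 4 windows were rare. Of the thinned cells, 38.7% had no count in any window, 41.5% had counts in 1 window, 16.5% in 2, 3.12% in 3 and 0.24% in all 4. Without thinning 213 cells had a count in all 4 windows, and their median depth was 21248 counts against 2431 in the 207 cells with none. For pairs of windows, the number of thinned cells with both was set beside the number given by the single shares within each set. Kit and Cd34 were found together in 44 cells where the shares give 34.2, and Cd34 and Procr in 24 where they give 29.4. The other 4 pairs lay between 0.99 and 1.13 times that number. These counts come from 1 draw of sparse data and carry no test.

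Width went with depth of coverage. Over the 73 peaks, width and counts had a Spearman's rho of 0.85, beside 0.82 over all peaks with a count, a description of peaks that share the same libraries. The 6 peaks of 1000 bp and over held 39.8% of the members' counts and all were tested, and of the 24 under 300 bp none was. The median member had 37 counts, against 46 in the whole table. No tested member owed its counts to a few cells, since the 5 highest cells gave at most 21.2% of the counts of any of them.

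Peaks nearest to the strongest ones over the 5 sets were sought by distance over log2 CPM. This measure takes in the level as well as the order of the sets, so a peak of like level and no difference between sets can also lie near. The peaks most like the strongest Kit peak were at 30407085 on chromosome 3 (distance 0.16) and at 76025842 on chromosome 15 (0.20). For Cd34 they were at 5252524 on chromosome 14 and 38833393 on chromosome 1, both at 0.21. For Procr they were at 121732957 (0.17) and 174241270 (0.18) on chromosome 1. For Ly6a they were at 73562065 on chromosome 15 (0.12) and at 148232432 on chromosome 2 (0.22). Their agreement with the strongest peaks in each set follows from how they were chosen. Within a distance of 1 lay 2694 peaks for Kit, 3155 for Cd34, 2839 for Procr and 1604 for Ly6a. The printed peaks are thus the nearest of many.

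The edges of the windows decided few strong peaks. Just outside, the nearest were 0.303 kb after the Cd34 window (65 counts, log2 fold change 0.02) and 0.192 kb before the Ly6a window (6 counts). The peak before the Cd34 window, 33.5 kb away, had 217 counts and a log2 fold change of 0.39. The one after the Kit window had 82 counts and -0.66, and those next to the Procr window had 26 and 16 counts and were not tested. Just inside, the peak at 155554826 in the Procr window and the one at 76075879 in the Kit window are given above. Near the end of the Ly6a window, the peak at 74879001 to 74879566 had 133 counts and a log2 fold change of 0.26 (standard error 0.36).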

How the data were processed

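Counts per peak and cell are as the authors deposited them, whole numbers without normalization, from plate-based single-cell ATAC-seq, per the labels' protocols. Bowtie2, Trim Galore, SAMtools, FastQC and Picard appear in the submitters' processing notes with no version, along with mm9 as the mouse build. Not given in the sources used here are the peak caller, pooling for peak calling, the counting of reads or fragments, cut-site shift, the treatment of reads with several matches and cell filters. Kept duplicates would raise counts, and 77.7% of nonzero entries were 1. Positions are those of the peak names in the table, which does not say whether starts count from 0 or 1.

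The windows, gene lists and tests were chosen with earlier results of these data known. Columns were matched to titles, and no cells had identical columns. The columns carry cell numbers, not barcodes, so shared barcodes could not be counted, and no doublet caller was run. Cells were summed into 5 sets. All 115295 peaks entered edgeR 4.0.16 (R 4.3.3): filterByExpr with a minimum count of 10, TMM factors, robust quasi-likelihood test, Benjamini-Hochberg adjustment over 58167 tested peaks and a threshold of 0.05. Standard errors came from dividing the log2 fold change by the root of the F statistic and set the 95% intervals. The edgeR step was tested on simulated data. Window sums and detection shares were compared by exact permutation of the 10 assignments of set labels (scipy 1.17.1). Thinning to 1906 counts, the 10th percentile, left out 4, 5, 84, 13 and 34 cells of young 1, young 2 and old 1 to 3.

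Named peaks were the 5 with most counts in the Kit window and the 3 with most in each other window, any called peak, and the tested peak with the smallest p in each window. Likeness was the Euclidean distance over log2 CPM (prior count 2) in 5 sets, for the 2 nearest tested peaks outside the windows. Alternatives were DESeq2 1.42.0, library totals, count filters, binarized and thinned cells, a cell filter, other thresholds, a block for the set number, leaving out each set in turn and the sum without the strongest peak. The gene table given here is of GRCm38.p6, so peaks were not assigned to genes and markers of other cell types were not analysed here.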

Additional observations from a re-analysis of the deposited data

How the results depend on the processing

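The number of members that entered each fit is given in brackets. No peak of the 4 windows was called by DESeq2 (73), with library totals (31), without a count filter (73) or with a minimum count of 30 (12). None was called with cells counted once per peak (29), with thinned cells (6) or at an adjusted p under 0.01. A fit of 6 or 12 members says nothing about the members it left out. The replicate block called 0 of 31 members and 1081 of 58821 peaks in all. It uses the set numbers that both ages share. The labels do not pair these numbers. Deviations from the age means in same-numbered sets had correlations of -0.0758 and -0.000706. The 2 young sets deviate as mirror images, so the differently numbered pairs had the same values with the sign turned. These correlations cannot decide whether the sets are paired. The cell filter called 1 of 28 members tested, where it called 1583 of 48627 tested peaks. An unadjusted p under 0.05 gave 2 of 31, where 15.4% of all tested peaks had one. Leaving out each old set in turn gave 0. Over all peaks the main fit called 1844 of 58167. DESeq2 called 423 of 115227, and edgeR without a filter 2583 of 115227. The calls were 769 of 22788 with a minimum count of 30 and 188 of 13871 with thinned cells. They were 1075 of 54748 without old 2 and 776 of 58821 without old 3. Of 188 values of the 16 named peaks under alternatives, 172 kept their direction, 16 reversed and 2, both of the strongest Ly6a peak, became called.

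Several differences changed sign, and the cause was not tested. Window sums turned to -0.038 for Kit and 0.016 for Ly6a with thinned cells, to -0.016 for Cd34 with TMM-scaled totals and -0.019 with cells counted once per peak, and to 0.15 for Ly6a without the strongest peak. The replicate block, the mean within shared set numbers, gave 0.13 for Kit, -0.033 for Cd34, 0.26 for Procr and -0.08 for Ly6a. With sets left out, sums ran from 0.05 to 0.30 for Kit, from 0.08 to 0.56 for Procr, from -0.092 to 0.22 for Cd34 and from -0.091 to 0.087 for Ly6a. Detection differences became -10.8 points for Cd34, -5.46 for Procr, -16.3 for Ly6a and -12.98 for Kit (from -0.28) without thinning, 1.49 for Kit and -0.81 for Ly6a at the 25th percentile, 0.43 for Kit without the strongest peak, and 1.23 for Kit and -0.93 for Ly6a over all draws. With sets left out they ran from -4.21 to 3.65 for Kit, from 3.89 to 5.30 for Cd34, from 1.18 to 7.01 for Procr and from -1.72 to 5.89 for Ly6a.

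Among named peaks, 196802269 in the Cd34 window had 0.046 with library totals, 0.036 with a minimum count of 30, 0.69 with thinned cells and 0.014 with the cell filter. The peak at 196764777 had -0.010 with cells counted once per peak, 155576735 had 0.42 with the cell filter, and 74764173 had 0.66 with thinned cells and 0.052 with the replicate block. With sets left out, log2 fold changes ran from -0.23 to 0.015 at 75970399, -0.19 to 0.086 at 196802269, -0.15 to 0.30 at 196764777, -0.21 to 0.51 at 155567941, -0.44 to 0.56 at 155576735, -0.43 to 0.51 at 74764173, 0.35 to 1.70 at 75985361, 0.38 to 1.15 at 196809100, 0.50 to 1.11 at 155554826, 0.04 to 0.80 at 74760830 and -1.01 to -0.38 at 74818711. Where a young set was left out, the lone young set was assumed to vary like the old ones. Depth limits these results: 42 of the 73 peaks were not tested.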
